A study of Mus musculus with 6 samples.

Results

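Keratins are the intermediate filament proteins of epithelial cells. The keratin genes described here are Krt5, Krt7, Krt8, Krt10, Krt14, Krt17, Krt18, Krt19 and Krt80, taken by gene symbol. All 9 were found among the 16982 rows of the count table, where 33 rows carried a keratin symbol, and all 9 were among the 13386 genes that passed the filter on low counts. RNA-seq had been done on 6 samples of mouse embryonic fibroblasts (MEF) on day 3 of reprogramming, 3 labelled WT and 3 labelled Rnf20 KO. Both groups had been infected with retroviruses for C-MYC, KLF4, OCT4 and SOX2, the factors that turn somatic cells into induced pluripotent stem cells. The MEF came from C57BL/6 mice with a floxed Rnf20 gene and a tamoxifen-inducible Cre, and 4-OH tamoxifen in the medium was the means of deletion in the KO cells. The labels list all 6 samples as untreated, KO included, and the sources used here do not state whether the WT cells received the drug. Infected cells were replated on mitomycin-C-treated MEF, and how much RNA of those feeder cells entered the libraries was not tested.

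Keratin filaments are built from pairs of an acidic type I and a basic type II keratin, so that each cell needs members of both types. Krt8 (type II) and Krt18 (type I) are the pair of simple epithelia, joined in many ducts and linings by Krt7 (type II) and Krt19 (type I). Krt5 (type II) and Krt14 (type I) mark the basal layer of stratified epithelia and Krt10 (type I) the layers above it, while Krt17 (type I) is known from skin appendages and wounded skin. Krt80 (type II) is a keratin of many epithelia. Fibroblasts build their filaments mainly of vimentin, and a gain of epithelial genes, called the mesenchymal-to-epithelial transition, is a known early step of reprogramming. RNF20 is the E3 ligase that adds a ubiquitin to histone H2B.

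The comparison asks how loss of Rnf20 in these cells changed the transcripts of the keratin genes. Of the 9 genes, Krt19 and Krt80 rose in the KO libraries by 2.21-fold and 1.92-fold, and no member was called lower. Over all genes tested, 16.4% were called higher and 16.6% lower. The calls of Krt19 and Krt80 were lost when some single libraries were left out. Krt8 and Krt18 lay lower in every KO library than in any WT library, by 2.83-fold and 2.46-fold in the fit, but missed the threshold. All KO libraries lay below WT for 28.2% of all genes tested. Without KO replicate 3 Krt8 and Krt18 were called lower, as were 24.2% of all genes. Krt5, Krt7, Krt10, Krt14 and Krt17 had KO values that overlapped those of WT. The order of the keratins by level differed too: per unit of gene length Krt8 stood first in WT, and Krt19 stood first in KO. KO replicate 3 was the lowest of the KO libraries for 7 of the 9 genes.

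Depth was even, with 20545442 to 21746898 counts per library. Rnf20 itself, the check of the labels, measured 107, 107 and 106 CPM (the depth-scaled read count, with TMM factors) in WT and 18.7, 18.5 and 16.4 CPM in KO; reads from exons outside the deleted part are still counted. KO replicate 3 stood apart: the chi-square per gene between its counts and those of the other two KO libraries was 92.4 and 101, against 8.57 between KO replicates 1 and 2 and 6.04 to 8.92 between WT libraries. Ddx3y, a Y-linked gene, was at 0 in KO replicates 1 and 3 and at 94.4 to 128 CPM in the other 4 libraries. The KO libraries thus differed from each other under the same genotype label. Ddx3y was at 0 in KO libraries only, so its absence cannot be fully told apart from genotype. The part of these differences in the results below was not tested. Fibroblast genes were abundant in both groups (Col1a1, 9282 to 10572 CPM in WT and 7067 to 13076 CPM in KO). Epithelial genes differed in level and direction. Epcam was at 0.997 to 1.19 CPM in WT and 0.286 to 0.665 CPM in KO. Cdh1 was at 9.83 to 10.0 CPM in WT and 1.81 to 13.4 CPM in KO. Dsp was at 54.4 to 58.7 CPM in WT and 21.2 to 83.8 CPM in KO. The keratin transcripts therefore come from bulk cultures that are fibroblast-like in their main transcripts, and fewer keratin-positive cells cannot be told apart from less keratin RNA per cell.

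Krt8 and Krt18 lie next to each other on chromosome 15 of GRCm38, Krt8 on the minus strand at 101996698 to 102004482 and Krt18 on the plus strand at 102028180 to 102032027. Their starts face away from each other across 23.7 kb. The stretch just before the start of Krt18 is shown because its KO values lay wholly below WT. It was taken from the RefSeq window (GRCm38.p6) of 250 bases before the start and cut where the annotated GENCODE transcript begins, which left 214 bases (chr15:102027966-102028179, plus strand). Capitals mark a match to CAGGTG, written CACCTG where the match is on the opposite strand.
Krt18: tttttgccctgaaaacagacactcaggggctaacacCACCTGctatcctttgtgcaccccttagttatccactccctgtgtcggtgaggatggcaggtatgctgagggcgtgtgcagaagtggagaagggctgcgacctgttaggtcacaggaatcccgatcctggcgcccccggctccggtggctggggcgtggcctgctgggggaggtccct

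CAGGTG, an E-box of the kind bound by the SNAIL and ZEB repressors of epithelial genes, was searched on both strands of the 250 bases before the RefSeq start. It was found for 4 of the 5 members searched, Krt5, Krt7, Krt10 and Krt18, and in 17.2% of all 32851 such windows. Krt14 had no match, and Krt17, Krt19 and Krt80 had no entry. Each match is shown within 30 bases on the strand of its gene, to let the flanks be compared. The windows are at chr15:101713016-101713045 (Krt5, minus), chr15:101412347-101412376 (Krt7, plus), chr11:99389399-99389428 (Krt10, minus) and chr15:102027990-102028019 (Krt18, plus). That of Krt7 lies inside the GENCODE gene, whose start is further upstream. The whole stretch searched for Krt14 (chr11:100206031-100206280, minus) also lies inside its GENCODE gene.
Krt5: cacaccactgtgCAGGTGtgctgggtgagc
Krt7: ccgccctgtcccCACCTGtgtgcgctcagc
Krt10: agcaaagcctagCACCTGtgagacacgccc
Krt18: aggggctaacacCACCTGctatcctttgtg

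Matches began 128 bases before the start in Krt5, 52 in Krt10, 44 in Krt7 and 214 in Krt18. The 4 genes with a match included a gene with KO values below WT (Krt18) and genes whose libraries overlapped (Krt5, Krt7, Krt10). The other motifs searched were TATAAA, present for Krt10 only among these 5 members and in 12.4% of all windows, and GGGCGG, present 4 times for Krt7 and in 32.7% of all windows. TGANTCA (6.75% of all windows) and CACACCC (6.93%) had no match in the 5 members. A match describes the letters of the window and is not evidence of binding.

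Krt8, the type II keratin of simple epithelia, was the most even of the 9 genes in WT and the least even in KO. Its WT libraries measured 30.3, 28.4 and 29.5 CPM, and its KO libraries 18.1, 12.4 and 0.714 CPM, the last from 15 counts. Every KO library was below every WT library, with replicate 3 far below the other two. The log2 fold change of KO over WT was -1.50 (SE 0.802), with an adjusted p of 0.189 in edgeR's quasi-likelihood test. Without KO replicate 3 the change was smaller and the error much smaller, -0.95 (SE 0.138, adjusted p = 0.000347), a 1.93-fold lower level. Without KO replicate 1 it was larger, -2.16 (SE 0.889, adjusted p = 0.117). The SD of log2 CPM was 0.047 in WT and 2.45 in KO, the latter above that of 99.7% of the genes tested, whose median SD in KO was 0.199.

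Krt18, the type I partner of Krt8, was lower in every KO library too, at a much lower level. It measured 1.47, 2.04 and 2.14 CPM in WT and 1.15, 0.807 and 0.333 CPM in KO, from 31 to 45 counts in WT and 24, 17 and 7 counts in KO. Replicate 3 was again the lowest, and the groups did not overlap. The log2 fold change was -1.30 (SE 0.448) with an adjusted p of 0.0646 in edgeR's quasi-likelihood test. The call depended on the test and on KO libraries: DESeq2 gave an adjusted p of 0.0417, edgeR's exact test 0.0224, and the quasi-likelihood test 0.0465 without KO replicate 3 (log2 fold change -0.94) and 0.0455 without KO replicate 1 (-1.71).

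Because both genes serve the same filament, their ratio was compared. The log2 ratio of Krt8 to Krt18 counts, with 2 counts added to each, was 4.28, 3.74 and 3.73 in WT and 3.87, 3.79 and 0.918 in KO. KO replicates 1 and 2 lay within the WT range, and KO replicate 3 lay below it, so that Krt8 was reduced more than Krt18 in that library alone. The means were 3.91 ± 0.313 in WT and 2.86 ± 1.68 in KO (SD, n = 3), a difference of -1.05 with p = 0.6 in a two-sided exact permutation test, for which 0.1 is the smallest value that 3 against 3 libraries allow. Without KO replicate 3 the difference was -0.082.

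**Figure D1:**
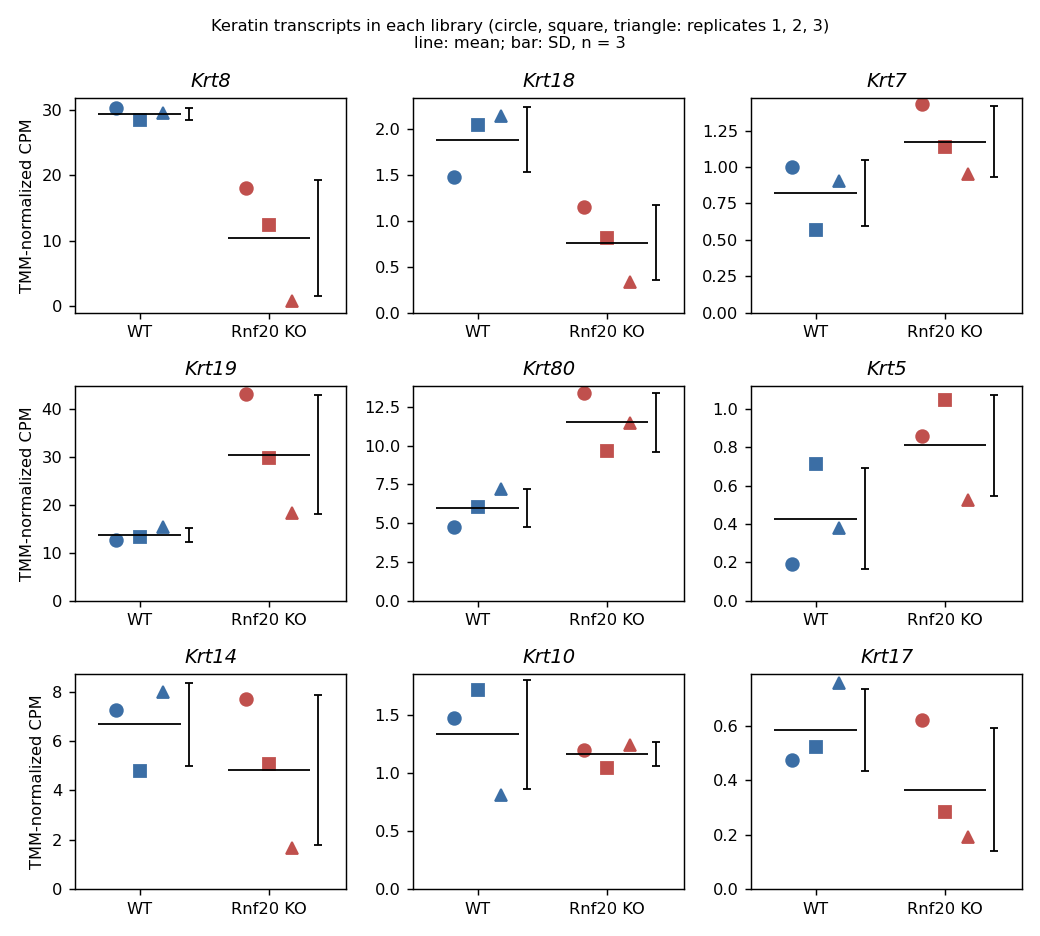
TMM-normalized CPM (vertical axes, linear, each gene on its own scale) of the 9 keratin genes in the 3 WT (blue) and 3 Rnf20 KO (red) libraries, with circles, squares and triangles for replicates 1, 2 and 3, a line at the mean and a bar for the SD. Krt8 and Krt18 have all KO points below WT, Krt19 and Krt80 all KO points above WT, and the triangle of KO lies lowest for 7 of the 9 genes.

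Krt19, the smallest type I keratin of simple epithelia, rose. It measured 12.7, 13.2 and 15.4 CPM in WT and 43.2, 29.7 and 18.4 CPM in KO. All KO libraries were above all WT libraries, and replicate 3 exceeded the highest WT library by little. The log2 fold change was 1.14 (SE 0.293, edgeR adjusted p = 0.0274), and 1.41 (SE 0.150, adjusted p = 4.78e-05) without KO replicate 3. The call was lost without WT replicate 1 (adjusted p = 0.0953), WT replicate 2 (0.0972), WT replicate 3 (0.0807) or KO replicate 2 (0.0562), with log2 fold changes between 1.09 and 1.23.

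Krt80 was the other gene that rose. Its levels were 4.75, 6.03 and 7.21 CPM in WT and 13.4, 9.64 and 11.5 CPM in KO. Here KO replicate 3 lay between the other two, and the groups did not overlap. The log2 fold change was 0.94 (SE 0.202, edgeR adjusted p = 0.0163) and 0.94 again without KO replicate 3 (adjusted p = 0.00316). Without WT replicate 1 it was 0.79 (adjusted p = 0.0552), and without WT replicate 2 it was 0.94 (adjusted p = 0.0666).

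These counts are read against those over all genes. At an adjusted p under 0.05, 16.6% of the genes tested were lower and 16.4% higher in KO (33% in either direction), and 0 and 2 of the 9 keratin genes were. DESeq2 and the exact test each called 1 member (Krt18) lower at an adjusted p under 0.05, beside 18.6% and 16.8% of all genes. Non-overlapping libraries were found with all KO below WT for 28.2% of the genes tested and with all KO above WT for 26.6% (54.8% together), against 2 and 2 members. By the thresholds of the study's methods (FDR under 0.01, a log2 change past 1 either way, and FPKM averaging above 1 in WT or KO), 2.08% of the genes were lower and 1.5% higher (3.59% together), and no member was. The median log2 fold change was -0.20 over the 9 members and 0.00 over all genes.

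**Figure D2:**
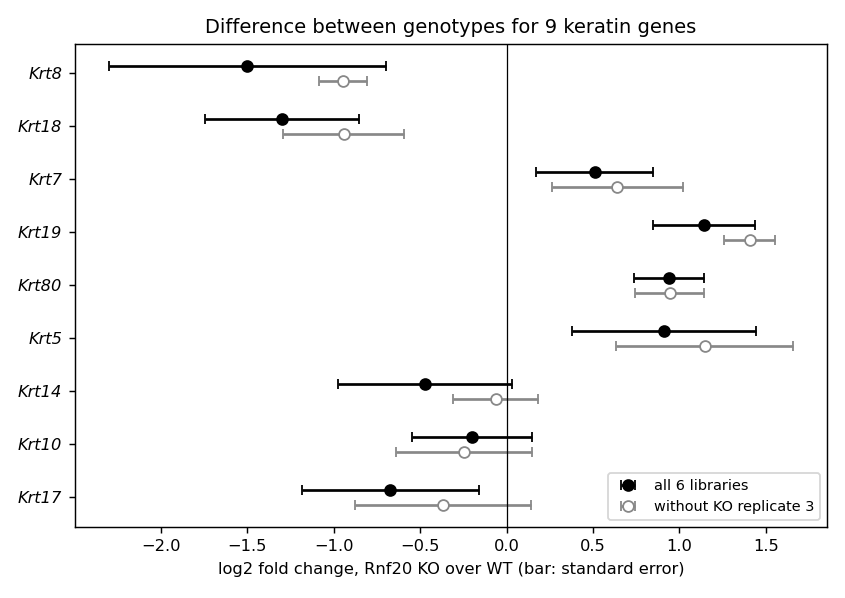
Log2 fold change of KO over WT (horizontal axis; bars are the standard errors of edgeR's fit) for the 9 keratin genes, with all 6 libraries (black) and without KO replicate 3 (open grey). Krt8 moves from -1.50 to -0.95 with a much shorter bar, and Krt80 stays at 0.94.

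The remaining 5 keratins had overlapping libraries. Krt7, a type II keratin of ducts and linings, measured 0.998, 0.570 and 0.902 CPM in WT and 1.43, 1.14 and 0.953 CPM in KO, where replicate 3 fell within the WT range (log2 fold change 0.51, SE 0.340, edgeR adjusted p = 0.279). Krt5, the basal type II keratin, measured 0.190, 0.712 and 0.380 CPM in WT and 0.859, 1.04 and 0.524 CPM in KO (log2 fold change 0.91, SE 0.531, edgeR adjusted p = 0.222), from 4 to 22 counts a library. Both had higher means in KO, but the errors were too wide to separate the groups. Krt5 was so low in WT that it entered the fit through its KO libraries, so a change above 0 was favoured for it.

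Krt14, the basal type I partner of Krt5, measured 7.27, 4.79 and 8.02 CPM in WT and 7.73, 5.08 and 1.67 CPM in KO. KO replicates 1 and 2 lay within the WT range and replicate 3 below it, and the log2 fold change was -0.47 (SE 0.506, edgeR adjusted p = 0.496), or -0.06 without replicate 3. Krt17 measured 0.475, 0.522 and 0.759 CPM in WT and 0.621, 0.285 and 0.191 CPM in KO, from 4 to 16 counts, with a log2 fold change of -0.67 (SE 0.512, edgeR adjusted p = 0.340). It entered the fit through its WT libraries, so a change below 0 was favoured for Krt17. Krt10, of the suprabasal layers, measured 1.47, 1.71 and 0.807 CPM in WT and 1.19, 1.04 and 1.24 CPM in KO (log2 fold change -0.20, SE 0.346, edgeR adjusted p = 0.683). Its KO libraries were closer to each other than its WT libraries.

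Levels can be compared between genes only per length. As CPM per kilobase of the deposited gene length, Krt8 led in WT with 16.3 ± 0.53 (SD, n = 3), followed by Krt19 with 8.74 ± 0.92, Krt14 with 3.94 ± 0.99, Krt80 with 1.71 ± 0.35 and Krt18 with 1.35 ± 0.26. The first 3 did not overlap in WT, whereas Krt80 and Krt18 did. The other 4 lay lower, at 0.629 for Krt10, 0.378 for Krt17, 0.201 for Krt7 and 0.195 for Krt5, with Krt7 and Krt5 not separable. In KO Krt19 led with 19.3 ± 7.88, above Krt8 with 5.76 ± 4.91, Krt80 with 3.28 ± 0.54 and Krt14 with 2.84 ± 1.79, and the last 3 overlapped. Krt8 and Krt19 held the same ranks on the authors' FPKM values.

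Summed over all 33 keratin rows, the level was 37.1, 37.2 and 40.8 CPM per kilobase in WT and 59.7, 43.4 and 22.4 CPM per kilobase in KO. The sum was thus higher than WT in KO replicates 1 and 2 and lower in replicate 3. Krt8 made up 45.2%, 42.2% and 40.1% of it in WT and 16.8%, 15.8% and 1.77% in KO, and Krt19 made up 21.7%, 22.5% and 24.0% in WT and 45.9%, 43.5% and 52.2% in KO. The ratio of type I to type II keratin was 0.860, 0.903 and 0.967 in WT and 2.60, 2.73 and 3.31 in KO. The 3 KO values of this ratio lay above WT, although the sum itself differed between them by more than 2-fold. Their type II make-up was unlike, with Krt80 at 6.42%, 6.34% and 14.6% of the sum in KO replicates 1, 2 and 3. Krt8 thus exceeded Krt80 in KO replicates 1 and 2 and lay below it in replicate 3. These shares rest on the same counts as the single genes, are descriptive and have no test.

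**Figure D3:**
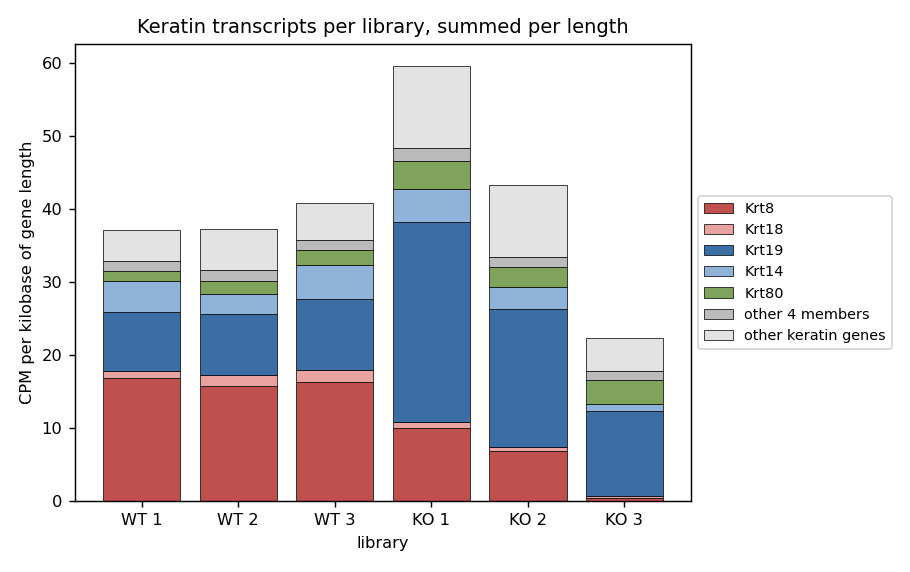
CPM per kilobase of gene length (vertical axis, from 0) of keratin transcripts in each of the 6 libraries (horizontal axis), stacked by gene. Krt8 (red) makes up 40.1% to 45.2% of the sum in WT and 16.8% or less in KO, while Krt19 (blue) makes up 43.5% to 52.2% in KO.

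Other keratin genes were also measured, and 6 of 24 passed the filter. Krt13, a type I keratin of inner stratified epithelia, measured 0.761, 0.949 and 1.23 CPM in WT and 5.35, 3.99 and 1.95 CPM in KO (log2 fold change 1.93, edgeR adjusted p = 0.0173). Krt6a, a type II keratin of stressed epidermis, measured 0.238, 0.285 and 0.427 CPM in WT and 2.05, 1.38 and 0.714 CPM in KO (2.10, edgeR adjusted p = 0.0217). Krt15, a basal type I keratin, measured 0.190, 0.142 and 0.142 CPM in WT and 0.525, 0.570 and 0.667 CPM in KO (1.85, edgeR adjusted p = 0.0158), from a few counts a library. All KO libraries were above all WT libraries for these 3 genes. Krt6a and Krt15 were so low in WT that they entered the fit through their KO libraries, so the number of genes called is not a share of all keratins. Leaving out KO replicate 3 gave 1 lower and 4 higher of 7 tested, beside 24.2% and 23.9% of all genes.

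Krt20, a keratin of gut epithelium, measured 2.19, 4.03 and 2.47 CPM in WT and 7.59, 8.83 and 1.67 CPM in KO, where replicates 1 and 2 were above and replicate 3 below WT (log2 fold change 1.06, edgeR adjusted p = 0.204; 1.50 and 0.000777 without replicate 3). Krt90 had a log2 fold change of -0.80 (edgeR adjusted p = 0.0788; -0.95 and 0.0336 without replicate 3) and all KO libraries below WT. Krt16 had 0.42 (edgeR adjusted p = 0.307). The other 18 keratin rows did not pass the filter.

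On chromosome 11 the type I genes Krt13, Krt15 and Krt19 lie close together, with 23.5 kb between the lower coordinates of Krt13 and Krt19. Krt13 and Krt19 rose, Krt15 was called from few counts after entering the fit through its KO libraries, and Krt14 and Krt17 further along had overlapping libraries. On chromosome 15 the type II genes with higher or overlapping levels (Krt80, Krt7, Krt6a and Krt5) come before Krt8 and Krt18, the pair that lay lower, and Krt90 stands among them with all KO below WT. The order along the chromosome is given as a description, and no test was made of it.

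**Figure D4:**
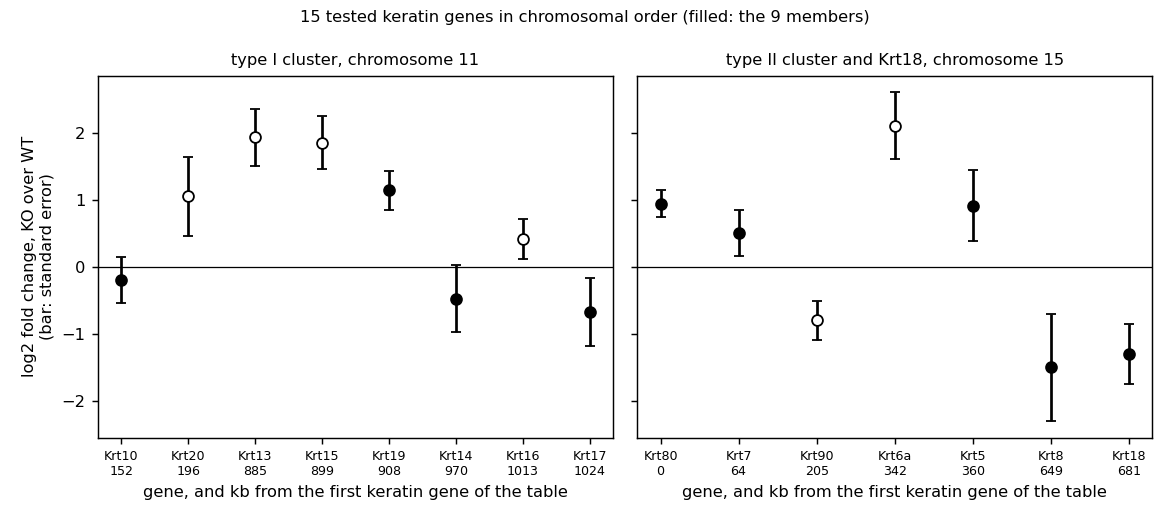
Log2 fold change of KO over WT (vertical axis; bars are standard errors) for the 15 tested keratin genes in chromosomal order, each labelled with its distance in kb from the first keratin gene of the table on that chromosome (filled points are the 9 members). Krt13, Krt15 and Krt19 are neighbours above 1, and Krt8 and Krt18 are neighbours below -1.

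Likeness between genes was measured as the root mean square, over the 6 libraries, of the difference in log2 CPM relative to the WT mean. The closest pair among the members was Krt19 and Krt80 (0.350), followed by Krt14 and Krt17 (0.399), while Krt8 and Krt18 were at 1.24. That distance lay mainly in KO replicate 3, where Krt8 was at -5.19 and Krt18, from 7 counts, at -2.19. In KO replicate 1 they were at -0.70 and -0.66, and in KO replicate 2 at -1.24 and -1.12. Nearest to Krt8 among all genes were Evx2 (0.311), a homeobox gene, Fgfr3 (0.324), a fibroblast growth factor receptor, and Msx1 (0.373), a homeobox gene. Fgfr3 measured 19.6, 21.1 and 18.9 CPM in WT and 10.8, 9.73 and 0.810 CPM in KO, and Msx1 20.9, 15.0 and 21.9 CPM in WT and 6.83, 6.32 and 0.429 CPM in KO. Both missed the threshold (edgeR adjusted p = 0.144 and 0.0643). Likeness was taken over all 6 libraries, KO included, so their very low KO replicate 3 follows from how they were picked.

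Nearest to Krt18 were Zfp184 (0.121), Htra3 (0.158) and Lypd2 (0.161), and only Zfp184 of them was called lower (log2 fold change -1.28, edgeR adjusted p = 0.0320). Nearest to Krt19 were Zfp750 (0.139), a transcription factor of epidermal differentiation, a predicted locus without a gene name (0.140) and Bmp6 (0.147), a bone morphogenetic protein. Zfp750 had a log2 fold change of 1.11 (edgeR adjusted p = 0.0461) and Bmp6 of 1.03 (0.0256). Nearest to Krt7 were a predicted locus (0.0732), Eps8l2 (0.0813) and Slurp1 (0.126), none of them called. The directions and calls of these nearest genes follow from the way they were picked and are no separate evidence.

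Desmosomes and linker proteins hold keratin filaments at the cell border. Of 26 desmosome and linker genes, 18 were tested, 9 rose and 0 fell at an adjusted p under 0.05, where 16.4% of all genes tested were higher and 16.6% lower, with a median log2 fold change of 0.36. Ppl (periplakin, a linker at the cell border) rose by 1.53 (edgeR adjusted p = 0.00198) and Perp, a desmosomal membrane protein, by 1.42 (0.00153). Plec (plectin, which ties filaments to hemidesmosomes and to other filaments) rose by 0.85 (edgeR adjusted p = 0.00349). Dsp, the desmosomal anchor of keratin, had 0.04 (edgeR adjusted p = 0.946), but 0.44 (0.00160) and a call higher without KO replicate 3. Jup, plakoglobin, had -0.03 (edgeR adjusted p = 0.837). Without KO replicate 3 the counts were 11 higher and 3 lower of 19 tested, where 23.9% of all genes were higher and 24.2% lower. Col17a1, with 4 to 7 counts a library in WT, entered that fit through its KO libraries and was among those higher. A change above 0 was thus favoured for it.

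Dsp measured 58.7, 56.3 and 54.4 CPM in WT and 83.8, 69.4 and 21.2 CPM in KO, above WT in KO replicates 1 and 2 and below it in replicate 3. Perp, by contrast, measured 31.9, 35.9 and 36.6 CPM in WT and 98.9, 89.2 and 90.9 CPM in KO, with KO replicate 3 like the other two.

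Of 16 other intermediate filament genes, 13 were tested, with a median of 0.06. Of these, 2 were lower and 3 higher, beside 16.6% and 16.4% of all genes. Nes (nestin) rose by 0.77 (edgeR adjusted p = 0.00488), Sync (syncoilin) by 0.99 (0.0189) and Bfsp1 (a lens filament protein) by 1.78 (0.0160). Bfsp1 had 8 to 10 counts a library in WT and passed the filter through its KO libraries, so the count that rose does not stand for the list. The lamin genes Lmnb1 (-1.61, edgeR adjusted p = 0.0482) and Lmnb2 (-0.77, 0.0408) fell, while Lmna had 0.06 (0.828). Vim, the main filament gene of fibroblasts, measured 3058, 2655 and 3055 CPM in WT and 3654, 3448 and 3614 CPM in KO (0.29, edgeR adjusted p = 0.0577), with all KO libraries above WT. When KO replicate 3 was left out, 2 were lower and 6 higher (24.2% and 23.9% of all genes). Vim (0.28, edgeR adjusted p = 0.0115) and Lmna (0.26, 0.0108) were among those higher.

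Of 18 transcription factors of epithelia, 11 were tested, 4 fell and 0 rose, beside 16.6% of all genes lower and 16.4% higher, with a median of -0.42. These were Klf4 (-0.43, edgeR adjusted p = 0.0176), Grhl1 (-0.92, 0.0366), Elf3 (-1.60, 0.0257) and Tfap2a (-1.03, 0.0236). Klf4 reads could come from the retroviral vector as well as from the mouse gene. Trp63, the master regulator of stratified epithelia, had 0.05 (edgeR adjusted p = 0.929), and Grhl2 was not analysed here. With KO replicate 3 left out, 3 were lower and 1 was higher (24.2% and 23.9% of all genes): Grhl1 was no longer called (-0.84, edgeR adjusted p = 0.0573), and Ehf was called higher (1.04, 0.0424).

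Of 20 genes of the cornified envelope and suprabasal layers, 8 were tested, with a median of 1.32. Of these, 1 fell and 4 rose, beside 16.6% and 16.4% of all genes. Lgals7 fell by 2.58 (edgeR adjusted p = 0.0130), whereas Sprr3 (4.34, 0.00695), Dmkn (2.64, 0.0178), Sbsn (1.81, 0.0170) and Sfn (0.38, 0.0366) rose. Sprr3 was at 0 to 0.285 CPM in WT, so its fold rests on few counts. Sprr3 and Dmkn were so low in WT that they passed the filter through their KO libraries, and the count that rose and the median do not stand for the list. Ivl was at 0 in WT and 0.0475 to 0.762 CPM in KO and was not tested. Without KO replicate 3, 9 of the genes were tested, with a median of 0.46. Then 1 was lower and 5 were higher (24.2% and 23.9% of all genes). Sprr3, Dmkn and Sprr1a, all among those higher, passed the filter through their KO libraries, so the same limit holds for this count.

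Of 18 epithelial surface genes, 7 were tested, with a median of -0.41. Of these, 2 fell and 1 rose, beside 16.6% and 16.4% of all genes. The summed level was 50.1 to 57.4 CPM in WT and 31.5 to 45.2 CPM in KO. Cldn3, a tight junction claudin, fell by 2.16 (edgeR adjusted p = 0.00614), Cdh3 (P-cadherin) by 1.22 (0.0244), and St14 (matriptase, a membrane protease) rose by 0.79 (0.0284). Cdh1 (E-cadherin) measured 9.98, 9.83 and 10.0 CPM in WT and 13.4, 9.40 and 1.81 CPM in KO (-0.28, edgeR adjusted p = 0.740; 0.20 and 0.309 without KO replicate 3). Epcam had -1.09 (edgeR adjusted p = 0.0671) and was below WT in every KO library, and Cldn7 was not analysed here. Leaving out KO replicate 3 gave 2 lower and 2 higher of 8 tested, beside 24.2% and 23.9% of all genes. Cldn4, with 3 counts a library in WT, entered that fit through its KO libraries and was among those higher. A change above 0 was thus favoured for it, and the count higher does not stand for the list.

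Mesothelial cells, which line body cavities and express Krt8, Krt18 and Krt19, are a further possible source of keratin RNA in MEF cultures. Of 10 mesothelial genes all were tested, and 3 rose and 0 fell, beside 16.4% and 16.6% of all genes. Their median was -0.17, and their summed level was 224 to 239 CPM in WT and 481 to 528 CPM in KO. Efemp1 alone gave 153 to 174 CPM of that sum in WT and 364 to 416 CPM in KO, and 7 of the 10 genes had a log2 fold change below 0. Msln (mesothelin) measured 47.8, 42.3 and 50.8 CPM in WT and 114, 95.9 and 95.8 CPM in KO (1.12, edgeR adjusted p = 0.00276), and Bnc1 (1.88, 0.00546) and Efemp1 (1.22, 0.00178) rose too. Upk3b measured 8.89, 8.54 and 8.49 CPM in WT and 10.5, 3.89 and 2.29 CPM in KO (-0.64, edgeR adjusted p = 0.360), Lrrn4 had -0.92 (0.235) and Wt1 -0.06 (0.901). The defining markers thus did not move together, and their part in the keratin values was not tested.

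Of 15 fibroblast genes, Pdgfra (-1.22, edgeR adjusted p = 0.0185) and Thy1 (-1.11, 0.00251) fell and 0 rose, beside 16.6% and 16.4% of all genes. The median was 0.02, with a summed level of 32726 to 35426 CPM in WT and 21904 to 44341 CPM in KO. With KO replicate 3 left out, 3 fibroblast genes were lower and 3 higher (24.2% and 23.9% of all genes). Of 10 macrophage genes 9 were tested and 0 were called at an adjusted p under 0.05, where 33% of all genes were called. Cd68 had -0.23 (edgeR adjusted p = 0.450) over all libraries. The macrophage genes had a median of 0.29, or -0.37 without KO replicate 3. Their summed level was 53.2 to 113 CPM in WT, 90.4 and 59.0 CPM in KO replicates 1 and 2 and 260 CPM in KO replicate 3, the library in which 7 of the 9 keratins were lowest among KO. Lyz2 gave 159 of those 260 CPM. In KO replicate 3, 8 of the 10 macrophage genes were at their highest, Cd68 (8.57 CPM) was within the WT range, and Mrc1 (1.91 CPM, against 5.80 to 17.8 CPM in WT) was at its lowest. Aif1 was at 0 in WT replicate 1, and the part of other cell types in the keratin differences was not tested.

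Sequence likeness to other genes limits some values. The transcript of Krt8 is 98.6% identical over 941 bases to the pseudogene Krt8-ps, and that of Krt18 is 90.5% identical over 1267 bases to Gm5200. Those of Krt14 and Krt17 are 87.4% and 89.4% identical to Krt16 and Krt14 over 1290 and 961 bases. Krt5 is 87.7% identical to Krt6b over 1165 bases. Shorter matches were Krt7 to Tmem143 (87.5% over 264 bases) and Krt80 to Gm35853 (100% over 170 bases). The best matches of Krt10 and Krt19 were 76.4% and 78.4% identical. How the authors' counting treated reads that fit more than 1 gene is not given in the sources used here. Genes on the opposite strand overlap exons of Krt8 (Gm36026), Krt80 (Gm35853), Krt10 (Gm11940), Krt7 (Gm671) and Krt5 (Gm44323). The library kit keeps the strand, but whether the counting used it is not given in the sources used here.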

How the data were processed

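RNA-seq of 3 WT and 3 Rnf20 KO samples was analysed, with groups and replicate numbers taken from the labels. The authors prepared stranded poly(A) libraries, aligned reads to GRCm38/mm10 with HISAT2 2.1.0 and deposited raw counts per gene, whole numbers without normalization. The authors also deposited gene lengths and FPKM values from Cufflinks 2.1.1 for 12633 genes, 7 of the members among them. The counting program is not given in the sources used here. The authors' columns of log2 fold changes and FDR were not used.

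Counts were analysed in R 4.3.3 with edgeR 4.0.16: TMM factors, filterByExpr (13386 of 16982 genes kept), and the quasi-likelihood test on genotype with Benjamini-Hochberg adjustment over all genes tested. The call threshold was 0.05. CPM were divided by the deposited length in kilobases to compare genes. A count of 3, taken as the detection floor, is 0.142 to 0.143 CPM and covers counting error only. The script was tested on simulated data. DESeq2 1.42.0, blastn 2.17.0 and matplotlib 3.10.9 were also used. Positions are from GENCODE M21 and upstream windows from RefSeq; that of Krt8 is not reported here.

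Named were all 9 members in every library, other keratins of 1 CPM or more, Rnf20, the nearest genes in pattern to 4 members, and from each list the genes called (where more than 4, the 2 largest each way) plus preset defining genes. Ddx3y, Sbsn, Upk3b and Lrrn4 fall outside this rule and were chosen after their values were seen. The members and gene lists were chosen with earlier results of these data known. Labels do not say whether replicates were separate cultures or embryos, so p-values measure only the spread between these samples, which may be technical in part; Ddx3y, at 0 in KO replicates 1 and 3 only, sets KO replicate 2 apart from them as other cells. Deviations of same-numbered WT and KO libraries correlated by -0.07, 0.04 and 0.01, so the numbers were not taken to pair them.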

Additional observations from a re-analysis of the deposited data

How the results depend on the processing

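The counts of members called were small and moved with the setting. The count called lower (0) was 1 by DESeq2 and 1 by edgeR's exact test (both Krt18), and 0 to 2 when a library was left out. The count called higher (2) was 0 to 2 when a library was left out. By the study's thresholds the count higher (0) was 1 by DESeq2, 1 by the exact test and 0 to 1 when a library was left out. With a replicate block, which the correlations of same-numbered libraries gave no ground for, 1 member was higher (Krt19, log2 fold change 1.07, adjusted p = 0.0643, was not called), and over all genes the calls went from 2218 lower and 2195 higher to 1490 and 1385. Of 115 member values under the alternatives, 102 kept direction and side of the threshold, 5 passed it, 7 missed it and 1 reversed: Krt10 went from -0.20 to 0.020 without WT replicate 2, within a range of -0.46 to 0.020 over the libraries left out. The log2 ratio of Krt8 to Krt18 ranged from -1.56 to -0.08 when a library was left out. Over all genes, scaling by library size alone gave 2684 lower and 1750 higher. Without WT replicate 1, 2 or 3, 994, 833 and 702 genes were lower and 953, 782 and 694 higher. Without KO replicate 3, 3280 were lower and 3230 higher. DESeq2 and the exact test gave 565 and 566 lower and 417 and 409 higher by the study's thresholds, against 279 and 201; these were 0 and 0 with the replicate block, 0 to 3 without any 1 WT library, 30 to 49 and 45 to 61 without KO replicate 1 or 2, and 491 and 300 without KO replicate 3. A CPM minimum of 1 in 3 libraries tested only 7 members. Depth limits Krt5, Krt7, Krt10, Krt17 and Krt18, which had 4 to 45 counts a library.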
